A study of Homo sapiens with 12 samples.

Results

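BPS2 against control is a comparison of 8 of the 12 libraries of the series: 4 of KELLY cells given the BPS2 oligonucleotide and 4 of KELLY cells given a control oligonucleotide. KELLY is an established human neuroblastoma line, a tumour of the sympathetic neuron lineage, and carries many copies of the oncogene MYCN. Libraries were put in the comparison by their labelled treatment, and genes by their level: 19626 of the 55771 genes in the table had a normalized read count of at least 10 in at least 4 of these 8 libraries. Every group received a lipoplex of a morpholino, an uncharged antisense oligonucleotide, held on a DNA leash so that a lipid could carry it, at 50 nM for 48 h. Cells had been plated for 24 h in 10% serum and were transfected in 4% serum. The control libraries therefore carry a transfection and an oligonucleotide too. The other 4 libraries, given the BPS1 oligonucleotide in the same way, are used only to show where BPS2 differed. No source used here gives the sequences of the oligonucleotides. The columns of BPS2 were found by sample title, since another name, KPAS, stands in the description of these samples, and every value below rests on that match. Nothing in the labels says that the 4 libraries of a group were separate cultures, so a p-value here weighs a difference only against the scatter among these libraries, which could be technical.

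The study asked which transcripts differ once the long form of NEAT1 and paraspeckles have been raised. NEAT1 is a long non-coding RNA transcribed as a short form, NEAT1_1, and a long form, NEAT1_2, from 1 start site. The short form ends at a polyadenylation site near the start of the gene, and the long form arises when transcription reads past that site. NEAT1_2 is the scaffold of paraspeckles, nuclear bodies in which proteins such as NONO, SFPQ and PSPC1 gather, while NEAT1_1 is not sufficient to build them.

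Values are the deposited normalized read counts. Log2 fold changes are differences of log2(value + 1), with the standard error of a limma fit to the 8 libraries, and they understate the change of low genes. A gene is said to have risen or fallen at a Benjamini-Hochberg adjusted p under 0.05 over all genes tested. In bulk RNA, fewer cells expressing a gene and less RNA per cell cannot be told apart. Depth, estimated as the total over what 1 read is worth, ran from 29.1 to 31.8 M in the 8 libraries. Control replicate 1 stood apart: the SD over genes of its deviation from the group mean was 0.376, against 0.278 to 0.314 in the other 7. Its deviation from the median of the 8 libraries rose with transcript GC content (Spearman's rho of 0.275 over protein-coding genes, which are no independent replicates). The same deviation rose with GC content in BPS2 replicates 2, 3 and 4 (0.139 to 0.214) and fell in the other 3 controls and BPS2 replicate 1 (−0.266 to −0.156). Results are therefore also given without control replicate 1. That set is no cleaner for GC content. By these values the deviation fell with GC content in every control left, and rose in BPS2 replicates 2, 3 and 4. The GC trend thus runs more closely with group in that set, and no GC correction was run on it.

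NEAT1 was lower with BPS2. Its row (ENSG00000245532, GRCh38, chromosome 11, 65422774 to 65445540, plus strand) held 6926, 7021, 7074 and 6494 in control and 4853, 4198, 3912 and 4083 in BPS2. All 4 BPS2 libraries lay below all 4 controls, and BPS2 replicate 1 was the highest of its group. The fall was 1.62-fold (log2 fold change −0.69 ± 0.07, adjusted p = 0.00154), with the smallest p an exact two-sided permutation test of 4 against 4 can give (0.0286). In the BPS1 libraries the row held 2379.9, 2150.1, 2150.0 and 1414. It was 1.10 ± 0.13 higher on the log2 scale with BPS2 than with BPS1 (95% interval 0.81 to 1.38, adjusted p = 5.66e-04). The direction and call against control held in every omission of 1 library (adjusted p up to 0.0109). The table gives NEAT1 as 1 value for all its transcripts, so this fall is of the sum of the forms and does not show whether NEAT1_2 rose or fell.

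The structure of the locus shows what that 1 value covers. GENCODE release 29 lists 8 NEAT1 transcripts, of which NEAT1-202, 22743 bases long in 1 exon (65422798 to 65445540), runs the length of the gene and NEAT1-208 (65423096 to 65426513) is among those that end near its start. The last 60 bases of NEAT1-208 (chr11:65426454-65426513, plus strand) are shown with the polyadenylation signal AATAAA in capitals, 11 bases from the end. The 3 annotated short RNA rows lie ahead of that point, inside the first part of the gene, and RF01956 (chr11:65423638-65423742) and RF01957 (chr11:65423960-65424118) are shown because they rest on more reads than RF01955 and their letters are also letters of NEAT1.
NEAT1-208 end: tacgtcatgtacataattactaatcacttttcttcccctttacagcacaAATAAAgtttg
RF01956: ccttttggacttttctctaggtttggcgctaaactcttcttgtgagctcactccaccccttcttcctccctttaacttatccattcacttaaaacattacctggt
RF01957: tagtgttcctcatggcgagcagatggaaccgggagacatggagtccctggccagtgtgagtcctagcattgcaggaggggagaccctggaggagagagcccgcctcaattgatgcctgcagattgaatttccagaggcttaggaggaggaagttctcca

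These short rows fell much further than NEAT1 itself. RF01957 held 155, 180.0, 207 and 189.6 in control and 24.8, 22.6, 12.4 and 12.2 in BPS2, a fall of 10.1-fold (log2 fold change −3.33 ± 0.24, adjusted p = 2.76e-04). RF01956 held 67.1, 101, 103 and 122 in control and 10.9, 4.92, 12.4 and 5.10 in BPS2, 11.1-fold lower (log2 fold change −3.48 ± 0.32, adjusted p = 8.67e-04). RF01955, named because it overlaps NEAT1, held 38.6, 42.3, 53.8 and 35.6 in control and 0.991, 1.97, 4.15 and 3.06 in BPS2 (log2 fold change −3.69 ± 0.33, adjusted p = 8.53e-04), and its BPS2 values stand on 1 to 4 reads. No BPS2 library reached the lowest control in any of the 3. No BPS2 value of RF01955 reached 10, so that row was tested only because its control values were high, and its call depends on that filter. Of the 8 NEAT1 transcripts, 6 hold the whole of RF01957, 5 the whole of RF01956 and 1, NEAT1-202, the whole of RF01955. No source used here says how reads were shared between these rows and NEAT1, so these rows cannot be read as RNAs apart from NEAT1. Unlike NEAT1, none was shown to differ between BPS2 and BPS1, with differences of −0.30 ± 0.29 (95% interval −0.93 to 0.34, adjusted p = 0.683), −0.40 ± 0.31 (−1.07 to 0.26, 0.564) and 0.32 ± 0.52 (−0.80 to 1.44, 0.831) on the log2 scale.

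**Figure D1:**
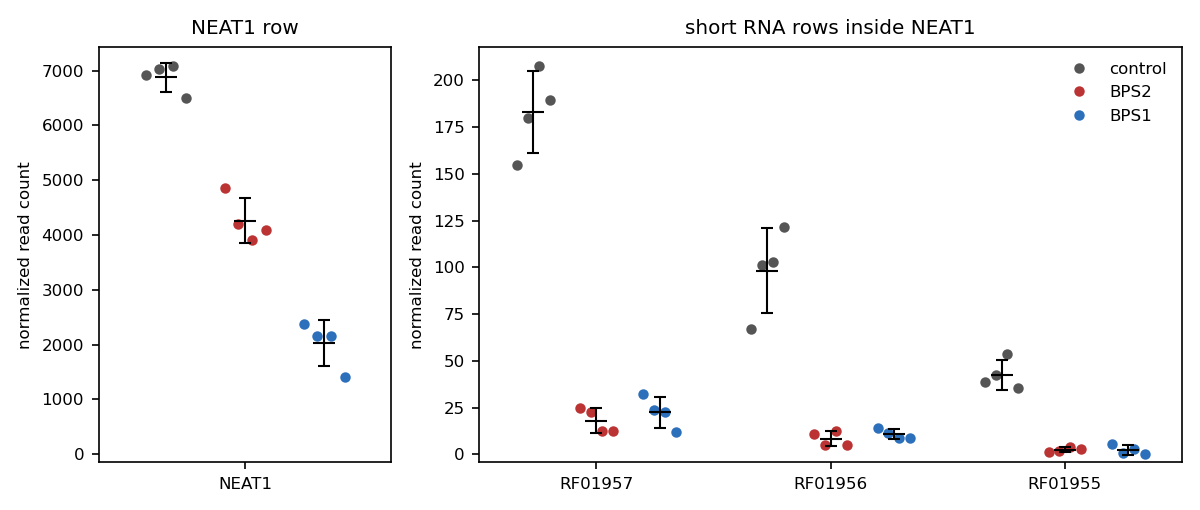
Normalized read counts of NEAT1 (left) and of the 3 short RNA rows annotated inside it (right), 1 point per library for control, BPS2 and BPS1, with the mean (line) and SD (bar) of 4 libraries; vertical axes start at 0 and differ. NEAT1 steps down from control to BPS2 to BPS1, while the short rows are low in both oligonucleotide groups, RF01957 averaging 183 ± 22.0 in control and 18.0 ± 6.62 in BPS2 (SD).

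Genes of paraspeckle proteins gave 2 calls. In this list 1 of 20 tested members rose and 1 fell (1 higher and 3 lower at an unadjusted p under 0.05), with a median log2 fold change of −0.03. Over all genes tested, 1.18% rose and 0.550% fell, and the median was 0.00. PSPC1, which pairs with NONO in paraspeckles, held 3237, 2989, 2889.6 and 2933 in control and 3749, 3627, 3569.6 and 3644 in BPS2 (log2 fold change 0.28 ± 0.06, adjusted p = 0.0419), so its lowest BPS2 library was above its highest control. HNRNPA1, an abundant RNA-binding protein, held 68657, 70481, 69182 and 66877 in control and 58723, 59648, 59538 and 58238 in BPS2 (log2 fold change −0.22 ± 0.04, adjusted p = 0.0213). NONO and SFPQ did not pass: their log2 fold changes were −0.06 ± 0.04 (adjusted p = 0.553) and −0.03 ± 0.05 (0.810). MYCN, whose many copies define the line, held 92957, 88246, 84161 and 81151 in control and 82104, 84900.0, 86169 and 87722 in BPS2, groups that overlap (log2 fold change −0.02 ± 0.05, adjusted p = 0.886), and its sign turned under quantile normalization (0.10) and without control replicate 1 (0.01). The adjusted p rose above 0.05 for HNRNPA1 (without control replicates 2 or 3 or BPS2 replicates 1, 2, 3 or 4, 0.0688 to 0.108), and PSPC1 (without any library other than control replicate 1, 0.102 to 0.143).

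In all, 340 of 19626 genes passed (1.73%): 232 were higher with BPS2 and 108 lower, and 40 and 25 of these by at least 2-fold. Before adjustment 2859 genes had a p under 0.05. The shares of all genes tested to set beside every list count below are 1.18% for rises and 0.550% for falls. In each of the 340 the 4 BPS2 libraries lay wholly above or wholly below the 4 controls, as they did for 5.56% of all genes tested on the higher and 4.32% on the lower side. Of the 340 genes, 283 are annotated as protein coding. Without control replicate 1 the count was 1222 (6.23% of genes: 752 higher, 3.83%, and 470 lower, 2.39%), and it included all 340 in the same direction. The GC trend runs more closely with group in that set, and its part in the larger count was not tested. Without any other single library it was between 121 (BPS2 replicate 4) and 217 (control replicate 4), and 100 of the 340 were called in all 8 omissions. Of the genes named below, PSPC1, HNRNPA1, COL8A1, PLK2, DDIT4, HERPUD1, GADD45A, SC5D, CDT1 and SRXN1 were not called after quantile normalization.

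**Figure D2:**
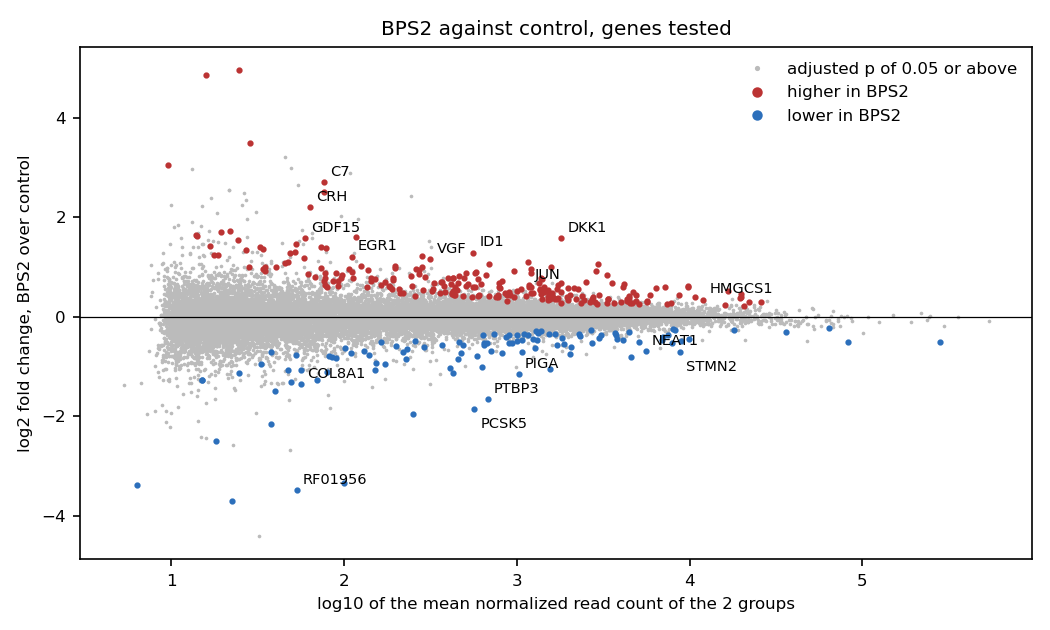
Log2 fold change of BPS2 over control (vertical) against the log10 of the mean normalized read count of both groups (horizontal), 1 point per gene tested. The 232 genes higher and 108 lower at an adjusted p under 0.05 are coloured, with rises outnumbering falls, and RF01956 (−3.48) is the lowest of the labelled genes and C7 (2.70) the highest.

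The largest rise by the rule for named genes was in C7, a component of the membrane attack complex of complement (ENSG00000112936, chromosome 5, 40909252 to 40982939, plus strand). It held 13.7, 22.6, 18.2 and 24.4 in control and 116, 127, 112 and 176 in BPS2, 6.50-fold higher (log2 fold change 2.70 ± 0.22, adjusted p = 3.51e-04). CRH, the gene of corticotropin-releasing hormone, held 20.3, 23.6, 30.3 and 13.6 in control and 63.4, 113, 129 and 113 in BPS2 (4.61-fold, log2 fold change 2.21 ± 0.28, adjusted p = 0.00474). DKK1, a secreted inhibitor of Wnt signalling, held 999, 1009.8, 867 and 752 in control and 2459, 2712, 3024 and 2577 in BPS2 (2.98-fold, log2 fold change 1.57 ± 0.11, adjusted p = 2.56e-04). BPS2 replicate 4 was highest for C7 and BPS2 replicate 1 lowest for CRH, and in all 3 genes the groups stood apart. PRKG1-AS1 overlaps DKK1 on the other strand. GDF15, a stress-induced cytokine, rose 2.97-fold (log2 fold change 1.57 ± 0.22, adjusted p = 0.00809), and ACKR3, a receptor that takes up the chemokine CXCL12, rose 2.76-fold (log2 fold change 1.46 ± 0.27, adjusted p = 0.0294). On the log2 scale MAGEH1, of the MAGE family, rose by 1.38, C8orf31 by 1.30 and SLC6A19, an amino acid transporter, by 1.18. AC091544.4 (log2 fold change 2.50) overlaps AC091544.2 on the other strand, and AC009779.3 (1.61) overlaps BLOC1S1 and RDH5 on its own strand and ITGA7 on the other, so that their own values are uncertain. The rest of the 15, NPAS4, ID1, ETV4, EGR1 and VGF, belong to the groups below. A single omission ended the call of ACKR3 and AC091544.4 (without control replicate 3 or BPS2 replicates 1, 2, 3 or 4, 0.0644 to 0.131), and AC009779.3 (without control replicate 3 or BPS2 replicates 2, 3 or 4, 0.0577 to 0.0641). Leaving out 1 library ended the call of C8orf31 (without BPS2 replicates 2 or 3, 0.0521 to 0.0571).

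C7 and ACKR3 were the calls of their lists. Members and lists throughout were chosen with earlier results of these data known. A list can thus hold its call by choice, and list counts describe the members and test nothing. In the complement list 1 of 14 tested members rose and 0 fell (3 higher and 0 lower at an unadjusted p under 0.05), and in the list of chemokine receptors and ligands 1 of 7 tested members rose and 0 fell (1 higher and 0 lower at an unadjusted p under 0.05). Their medians were 0.15 and −0.04, and without control replicate 1 the complement list had 2 rises and the chemokine list 1.

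Immediate early genes, which encode transcription factors and RNA regulators switched on within minutes by growth factors and stress, rose in part. In this list 8 of 23 tested members rose and 0 fell (13 higher and 1 lower at an unadjusted p under 0.05) beside 1.18% and 0.550% of all genes, and the median log2 fold change was 0.39. JUN, a subunit of the AP-1 transcription factor, held 944, 907, 886 and 939.7 in control and 1340.2, 1439, 1474 and 1459.5 in BPS2 (log2 fold change 0.64 ± 0.06, adjusted p = 0.00144). EGR1, a zinc finger factor downstream of ERK, held 63.1, 73.8, 80.2 and 48.2 in control and 132, 155, 207 and 124 in BPS2 (2.31-fold, log2 fold change 1.21 ± 0.20, adjusted p = 0.0180). Its highest value was in BPS2 replicate 3, and JUN varied little within either group. ATF3, a stress-induced partner of AP-1 factors, held 383, 469, 375 and 384 in control and 701, 811, 815 and 689 in BPS2 (log2 fold change 0.91 ± 0.10, adjusted p = 0.00222). JUNB, JUND, the small Maf factor MAFF and the orphan receptor NR4A1 rose by 0.62, 0.52, 0.86 and 0.60 on the log2 scale. ZFP36, which speeds the decay of AU-rich messages, held 62.2, 65.0, 77.3 and 83.7 in control and 125, 143, 156 and 138 in BPS2 (log2 fold change 0.96 ± 0.14, adjusted p = 0.00797). FOS, the usual partner of JUN, held 51.7, 245, 44.8 and 32.9 in control and 174, 363, 607 and 427 in BPS2, and control replicate 2 lay above BPS2 replicate 1: its log2 fold change of 2.42 ± 0.58 did not pass (adjusted p = 0.0810). Without control replicate 1, 10 rose and 1 fell. After an omission the threshold was missed for EGR1 (without BPS2 replicates 2 or 3, 0.0530 to 0.0686), and JUNB (without control replicates 2 or 3 or BPS2 replicates 2, 3 or 4, 0.0544 to 0.0751). Omissions also ended the call of JUND (without control replicates 2 or 3 or BPS2 replicates 2 or 3, 0.0544 to 0.0662), and NR4A1 (without control replicates 2, 3 or 4 or BPS2 replicates 2, 3 or 4, 0.0632 to 0.0918).

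Some of the genes that ERK signalling induces and that feed back on it rose as well. In this list 7 of 20 tested members rose and 0 fell (12 higher and 0 lower at an unadjusted p under 0.05), with a median of 0.38. SPRY4, an inhibitor of receptor kinase signalling, held 834, 897, 840.3 and 837 in control and 1580.1, 1463, 1619 and 1633 in BPS2 (log2 fold change 0.88 ± 0.07, adjusted p = 3.07e-04), and ETV4, an ETS factor induced by ERK, held 164, 193, 193 and 129.6 in control and 343, 418, 429 and 383 in BPS2 (2.32-fold, log2 fold change 1.22 ± 0.14, adjusted p = 0.00263). The spread of SPRY4 within each group was small beside the gap between groups. The phosphatase genes DUSP4, DUSP5 and DUSP8, which switch off MAP kinases, rose by 0.68, 0.73 and 0.81 on the log2 scale. IER3, an early gene counted here and in the NF-kB list, stood at 14.4, 15.9, 12.8 and 15.9 in control and 45.0, 41.7, 41.9 and 27.8 in BPS2 (log2 fold change 1.33 ± 0.21, adjusted p = 0.0120), with BPS2 replicate 4 the lowest of its group. MAFF is shared with the immediate early list. Leaving out control replicate 1, 8 rose and 0 fell. With fewer libraries the call was lost for DUSP4 (without control replicate 3 or BPS2 replicates 2, 3 or 4, 0.0550 to 0.0735), and DUSP5 (without BPS2 replicate 3, 0.0521). Single omissions took away the call of DUSP8 (without control replicates 2 or 3 or BPS2 replicates 3 or 4, 0.0511 to 0.0663), and IER3 (without BPS2 replicates 2 or 3, 0.0539 to 0.0554).

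Genes that neurons induce on depolarisation form a list that overlaps those. In it 7 of 17 tested members rose and 0 fell (7 higher and 0 lower at an unadjusted p under 0.05), with a median of 0.42. NPAS4, a transcription factor induced by calcium influx, held 62.4, 40.7, 29.5 and 29.5 in control and 92.9, 127, 73.9 and 128 in BPS2 (2.62-fold, log2 fold change 1.39 ± 0.27, adjusted p = 0.0338), and control replicate 1 was the highest control. On the log2 scale CREM, a cyclic AMP-responsive regulator, rose by 0.42, PPP1R15A, a phosphatase subunit that restores translation after stress, by 0.44 and the kinase gene PLK2 by 0.53. NR4A1 is shared with the immediate early list, and VGF and SCG2 with the granins. In the list without control replicate 1, 7 rose and 0 fell. With 1 library left out, an adjusted p above 0.05 was reached by CREM and PPP1R15A (without control replicates 2, 3 or 4 or BPS2 replicates 2, 3 or 4, 0.0522 to 0.117), and NPAS4 (without control replicates 2, 3 or 4 or BPS2 replicates 1, 2 or 4, 0.0715 to 0.117). The adjusted p rose above 0.05 for PLK2 (without control replicates 2 or 3 or BPS2 replicates 1, 2, 3 or 4, 0.0848 to 0.132).

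Part of the granin and neuropeptide genes rose. Granins and neuropeptides are stored in dense core vesicles of sympathetic and endocrine cells: 5 of 18 tested members rose and 0 fell (7 higher and 3 lower at an unadjusted p under 0.05), with a median of 0.17. VGF, a granin cut into several peptides, held 183, 189, 225 and 183 in control and 342, 479, 496 and 431 in BPS2 (2.22-fold, log2 fold change 1.15 ± 0.13, adjusted p = 0.00233). SCG2, the granin secretogranin II, held 1162, 1069, 1059.7 and 942 in control and 1971, 2154, 2220.2 and 2087 in BPS2 (1.99-fold, log2 fold change 1.00 ± 0.08, adjusted p = 3.35e-04). BPS2 replicate 1 was the lowest of its group for both. NPY, the neuropeptide that sympathetic neurons release with noradrenaline, rose from 108 ± 10.2 to 178 ± 18.5 (SD, n = 4, log2 fold change 0.72), and CARTPT, which encodes the peptide CART, from 277 ± 46.5 to 448 ± 54.6 (log2 fold change 0.70). CHGA, which encodes chromogranin A, held 134935, 109217, 103720.0 and 103600.0 in control and 84556, 90361, 90402 and 90885 in BPS2, all BPS2 libraries lower, and did not pass (log2 fold change −0.33 ± 0.08, adjusted p = 0.0828). Among 12 tested genes of prohormone processing enzymes 0 rose and 1 fell, PCSK5, described with the falls. Without control replicate 1, 7 rose and 1 fell in the granin list, CHGA being the fall, and its median was 0.36. After correction for the GC trend its median was 0.09, with 5 rises and 0 falls. A single omission ended the call of CARTPT (without control replicates 2, 3 or 4 or BPS2 replicates 2, 3 or 4, 0.0613 to 0.138), and NPY (without control replicates 2 or 3 or BPS2 replicates 2, 3 or 4, 0.0629 to 0.0693).

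**Figure D3:**
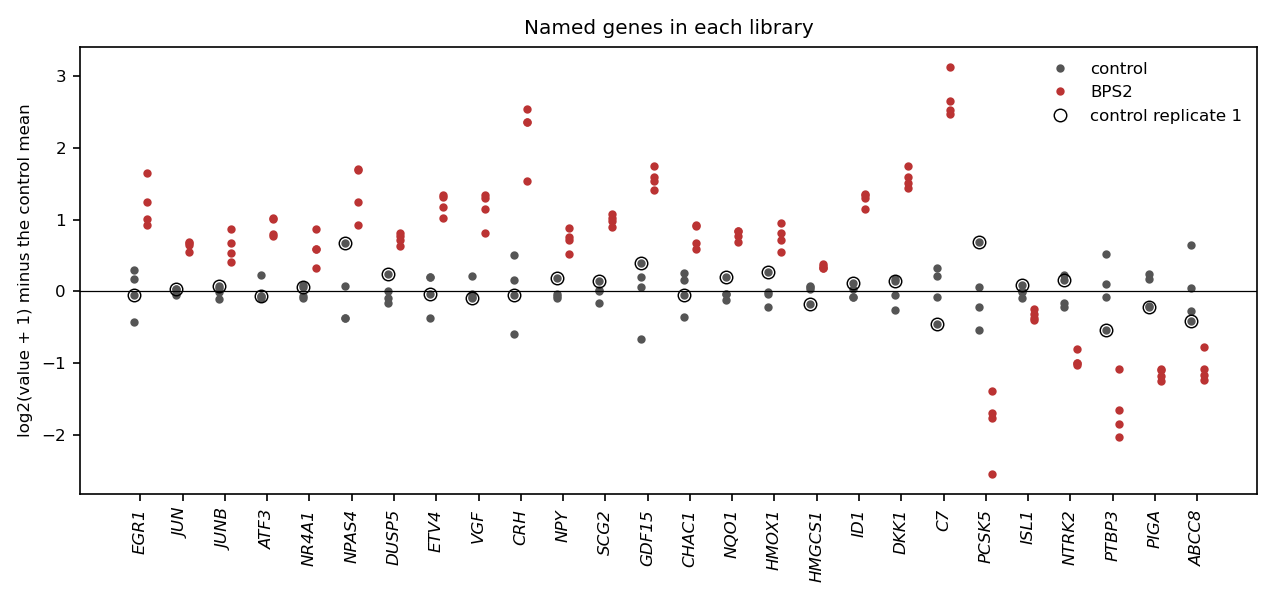
Log2(value + 1) of each library minus the mean of the 4 controls (vertical) for 26 named genes (horizontal), 1 point per library, with control replicate 1 ringed. BPS2 points lie above all controls for the risen genes and below them for the fallen ones, and the ringed point is not at one end of the controls throughout.

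The promoters of some of these genes hold known response elements, and the windows are shown to give the letters behind the names. RefSeq promoter windows (GRCh38.p14, 250 bases before to 50 after the annotated start) were matched by symbol to 173 of the 232 risen genes and 67 of the 108 fallen genes, and to 12005 of the genes tested. The cyclic AMP response element TGACGTCA, searched on both strands, occurred in the windows of 11 risen genes (6.36%), 0 fallen genes and 410 tested genes (3.42%), and in 2.25% of the 27305 genes with a RefSeq window. Those 11 were CARTPT, CDIP1, CREM, DUSP8, GPR3, JUND, MAFF, PDLIM3, PNMA6A, PPP1R15A and VGF, of which CDIP1, GPR3, PDLIM3 and PNMA6A are named only from this search. The share in risen genes was not tested against the rest. The 250 bases before the start of VGF (chr7:101165570-101165819, minus strand), MAFF (chr22:38201744-38201993, plus strand), CARTPT (chr5:71719025-71719274, plus strand) and PPP1R15A (chr19:48872171-48872420, plus strand) follow with the element in capitals. It begins 79 bases before the start in VGF, 54 in MAFF, 143 in CARTPT and 58 in PPP1R15A. A match is a run of letters and not evidence of binding.
VGF: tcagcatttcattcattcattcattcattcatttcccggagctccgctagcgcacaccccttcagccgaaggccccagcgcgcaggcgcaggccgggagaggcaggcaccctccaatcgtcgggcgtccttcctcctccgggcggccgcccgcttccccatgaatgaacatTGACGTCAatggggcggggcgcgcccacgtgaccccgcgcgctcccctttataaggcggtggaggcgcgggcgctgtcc
MAFF: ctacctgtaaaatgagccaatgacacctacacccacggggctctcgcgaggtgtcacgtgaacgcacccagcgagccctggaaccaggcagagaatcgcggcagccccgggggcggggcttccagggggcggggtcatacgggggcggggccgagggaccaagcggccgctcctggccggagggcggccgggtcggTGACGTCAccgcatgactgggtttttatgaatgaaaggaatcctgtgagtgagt
CARTPT: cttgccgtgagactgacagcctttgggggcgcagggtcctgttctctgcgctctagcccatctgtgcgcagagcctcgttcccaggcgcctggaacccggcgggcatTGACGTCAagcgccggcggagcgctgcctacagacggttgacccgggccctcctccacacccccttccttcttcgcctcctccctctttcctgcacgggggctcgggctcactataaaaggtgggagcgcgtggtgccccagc
PPP1R15A: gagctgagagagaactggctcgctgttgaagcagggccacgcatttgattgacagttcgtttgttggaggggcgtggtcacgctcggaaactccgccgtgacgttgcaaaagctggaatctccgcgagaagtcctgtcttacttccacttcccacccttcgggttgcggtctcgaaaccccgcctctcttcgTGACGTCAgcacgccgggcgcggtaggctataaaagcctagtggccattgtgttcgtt

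The CArG box, which serum response factor binds, was found on either strand in the windows of 1 risen gene, EGR1, 1 fallen gene, NTRK2, 1.61% of tested genes and 1.60% of all genes with a window. EGR1 (chr5:138465229-138465478, plus strand) holds a pair of boxes, in capitals, that begin 105 and 83 bases before the start.
EGR1: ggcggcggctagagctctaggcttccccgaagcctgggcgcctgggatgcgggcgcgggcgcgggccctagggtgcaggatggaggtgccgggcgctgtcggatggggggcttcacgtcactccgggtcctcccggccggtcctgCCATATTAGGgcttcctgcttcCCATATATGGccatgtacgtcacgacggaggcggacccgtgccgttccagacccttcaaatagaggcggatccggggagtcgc

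Inflammatory targets of NF-kB rose in part, at low levels. In this list 5 of 20 tested members rose and 0 fell (8 higher and 0 lower at an unadjusted p under 0.05), with a median of 0.24. ICAM1, an adhesion molecule for leukocytes, held 5.32, 9.72, 4.94 and 5.31 in control and 25.5, 19.5, 19.0 and 21.5 in BPS2 (3.13-fold, log2 fold change 1.65 ± 0.27, adjusted p = 0.0160). The chemokine gene CCL2 held 27.4, 17.8, 15.0 and 15.0 in control and 41.9, 53.4, 54.5 and 46.2 in BPS2 (2.59-fold, log2 fold change 1.37 ± 0.22, adjusted p = 0.0152), and TNF held 12.1, 10.8, 9.84 and 7.69 in control and 30.3, 21.6, 27.9 and 21.2 in BPS2 (log2 fold change 1.24 ± 0.23, adjusted p = 0.0291). All 3 were low in control, and no BPS2 library of any of them fell within the range of the controls. No control value of ICAM1 reached 10, so the gene was tested only because its BPS2 values were high. Its call and its place among the 5 rises depend on that filter. NFKB2, an NF-kB subunit that is itself a target, rose by 0.42 on the log2 scale and did not pass after correction for the GC trend (adjusted p = 0.0550). Interferon and RNA sensor genes, which foreign RNA can induce, gave no call: 0 of 27 tested members rose and 0 fell (2 higher and 3 lower at an unadjusted p under 0.05) in limma, with a median of −0.06. Leaving out control replicate 1, 6 rose and 0 fell in the NF-kB list, and 1 rose and 2 fell in the interferon list. Leaving out 1 library ended the call of CCL2 (without control replicates 2 or 3 or BPS2 replicates 2, 3 or 4, 0.0534 to 0.0641), and ICAM1 (without control replicate 3 or BPS2 replicates 1, 2, 3 or 4, 0.0530 to 0.0645). After an omission the threshold was missed for NFKB2 (without control replicates 2, 3 or 4 or BPS2 replicates 2, 3 or 4, 0.0721 to 0.147), and TNF (without any library other than control replicate 1, 0.0686 to 0.110).

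Of genes of the integrated stress response and the unfolded protein response, 7 rose. ATF4 is the factor translated when amino acids or protein folding fail, and its targets and the chaperones of the endoplasmic reticulum form this list: 7 of 38 tested members rose and 0 fell (18 higher and 0 lower at an unadjusted p under 0.05), with a median of 0.20. HSPA5, the main chaperone of the endoplasmic reticulum, held 18383, 16774, 16137 and 15590.1 in control and 21895, 23376, 24010.3 and 22507 in BPS2 (log2 fold change 0.46 ± 0.06, adjusted p = 0.00547). CHAC1, which degrades glutathione, held 101, 81.2, 125 and 117 in control and 158, 168, 199 and 198 in BPS2 (log2 fold change 0.78 ± 0.15, adjusted p = 0.0364). The gap was narrow for CHAC1 and wide for HSPA5 relative to the spread of each. GDF15 and ATF3 are also members. HERPUD1, a component of protein degradation at the endoplasmic reticulum, rose by 0.36 on the log2 scale and DDIT4, an inhibitor of the mTOR kinase complex, by 0.49. DDIT3, which encodes CHOP, held 217, 167, 179.5 and 132 in control and 223, 220.0, 274 and 301 in BPS2 and did not pass (log2 fold change 0.56 ± 0.16, adjusted p = 0.154). In the list without control replicate 1, 13 rose and 0 fell, DDIT3 among them (adjusted p = 0.0367). Of p53 targets, 2 of 25 tested members rose and 0 fell (4 higher and 4 lower at an unadjusted p under 0.05): GDF15 and GADD45A (log2 fold change 0.47), a stress sensor, against 3 and 2 without control replicate 1. Omissions also ended the call of CHAC1, HERPUD1 and GADD45A (without any library other than control replicate 1, 0.0523 to 0.152), and DDIT4 (without control replicates 2, 3 or 4 or BPS2 replicates 2, 3 or 4, 0.0598 to 0.150).

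Binding sites named for these factors are shown for HSPA5 and CHAC1. The endoplasmic reticulum stress response element, CCAAT and CCACG held 9 bases apart, searched on both strands, was present in the window of 1 risen gene, HSPA5, 0 fallen genes, 0.142% of tested genes and 0.0916% of all genes with a window. The composite site for CEBP and ATF factors, TGATGNAA on either strand, was present in 8 risen genes (4.62%), among them ATF3, CHAC1 and HERPUD1, in 1 fallen gene (1.49%), in 2.93% of tested genes and in 4.46% of all genes with a window, a share close to that of the risen genes. The 250 bases before the start of HSPA5 (chr9:125241344-125241593, minus strand) and CHAC1 (chr15:40953221-40953470, plus strand) follow with the match in capitals. The element begins 66 bases before the start in HSPA5, and the composite site, printed as its reverse complement, 209 bases before it in CHAC1.
HSPA5: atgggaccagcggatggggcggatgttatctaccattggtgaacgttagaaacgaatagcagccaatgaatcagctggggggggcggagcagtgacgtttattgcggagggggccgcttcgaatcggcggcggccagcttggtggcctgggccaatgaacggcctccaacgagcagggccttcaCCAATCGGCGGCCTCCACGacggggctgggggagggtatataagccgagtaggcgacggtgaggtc
CHAC1: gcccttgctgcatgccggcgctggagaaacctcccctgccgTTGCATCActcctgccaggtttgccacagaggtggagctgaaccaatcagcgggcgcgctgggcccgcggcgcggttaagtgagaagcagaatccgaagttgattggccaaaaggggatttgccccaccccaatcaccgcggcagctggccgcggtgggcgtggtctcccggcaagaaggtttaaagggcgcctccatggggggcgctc

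Some antioxidant genes that NRF2 controls rose with BPS2. In this list 6 of 23 tested members rose and 0 fell (10 higher and 0 lower at an unadjusted p under 0.05), with a median of 0.22. NQO1, a quinone reductase, held 1156, 976, 982 and 927 in control and 1623, 1721, 1799 and 1802 in BPS2 (1.72-fold, log2 fold change 0.78 ± 0.08, adjusted p = 0.00154). GCLM, the modifier subunit of glutathione synthesis, held 1088, 928, 918 and 934 in control and 1531, 1359, 1474 and 1459 in BPS2 (log2 fold change 0.59 ± 0.08, adjusted p = 0.00538). GPX3, a secreted glutathione peroxidase, held 663, 582, 595 and 655 in control and 971, 845, 964 and 1021 in BPS2 (log2 fold change 0.61 ± 0.08, adjusted p = 0.00756). In these 3 genes every BPS2 library stood above the controls by more than the spread of either group. HMOX1, which breaks down haem, rose by 0.76, the sulfiredoxin gene SRXN1 by 0.37 and ME1, a source of NADPH, by 0.36, all on the log2 scale. Without control replicate 1, 10 rose and 0 fell. With fewer libraries the call was lost for HMOX1 (without control replicate 2 or BPS2 replicates 2, 3 or 4, 0.0527 to 0.0571), and ME1 (without control replicate 3 or BPS2 replicates 3 or 4, 0.0513 to 0.0602). Single omissions took away the call of SRXN1 (without any library other than control replicate 1, 0.0914 to 0.153).

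A few cholesterol genes rose slightly with BPS2. Cells make cholesterol from acetyl-CoA through HMG-CoA and mevalonate under the control of SREBP2. In this list 4 of 30 tested members rose and 0 fell (14 higher and 1 lower at an unadjusted p under 0.05), with a median of 0.20. In 13 members all BPS2 libraries lay above all controls and in 2 all below, beside 5.56% and 4.32% of all genes tested. HMGCS1, the synthase of HMG-CoA (ENSG00000112972, chromosome 5, 43289395 to 43313512, minus strand), held 9282, 11008, 11103 and 10773 in control and 13653, 13139, 13462 and 13187 in BPS2 (log2 fold change 0.35 ± 0.06, adjusted p = 0.0269). Control replicate 1 was the lowest control, and AC114947.2 overlaps the gene on the other strand. CYP51A1 and SC5D, enzymes of the later sterol steps, rose by 0.31 and 0.33, and INSIG1, which holds SREBP in the endoplasmic reticulum, by 0.36, on the log2 scale. MSMO1, a sterol oxidase, did not pass (log2 fold change 0.26 ± 0.07, adjusted p = 0.119). Leaving out control replicate 1, 11 rose and 2 fell. With 1 library left out, an adjusted p above 0.05 was reached by HMGCS1, CYP51A1 and SC5D (without any library other than control replicate 1, 0.0523 to 0.170), and INSIG1 (without BPS2 replicate 4, 0.0522).

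Among targets of BMP signalling 5 rose. BMP ligands act through receptor-regulated SMAD proteins on ID genes, which encode inhibitors of neuronal differentiation factors, and on genes that limit the pathway. In this list 5 of 22 tested members rose and 0 fell (7 higher and 0 lower at an unadjusted p under 0.05), with a median of 0.14 that became 0.06 without control replicate 1. ID1 held 351, 306, 306 and 330.1 in control and 716, 818, 831 and 798 in BPS2 (2.44-fold, log2 fold change 1.29 ± 0.08, adjusted p = 2.56e-04), and ID3 held 3885, 3091, 2828 and 3128 in control and 4747, 5037, 5376 and 5140.1 in BPS2 (log2 fold change 0.66 ± 0.09, adjusted p = 0.00788). ID2 rose by 0.44 on the log2 scale. SMAD6, an inhibitory SMAD, held 648, 632, 623 and 775 in control and 1189, 1303, 1361 and 1203 in BPS2 (log2 fold change 0.92 ± 0.09, adjusted p = 0.00117), and BAMBI, a receptor without a kinase domain, held 392, 329.5, 361 and 348 in control and 602, 660.3, 687 and 666 in BPS2 (log2 fold change 0.87 ± 0.08, adjusted p = 0.00117). The BPS2 libraries of ID1, SMAD6 and BAMBI lay close together and well above the highest control. The adjusted p rose above 0.05 for ID2 (without control replicate 2 or BPS2 replicates 3 or 4, 0.0509 to 0.0550). In the list without control replicate 1, 6 rose and 1 fell.

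Wnt and Notch genes gave few calls. In the Wnt list 3 of 18 tested members rose and 0 fell (5 higher and 2 lower at an unadjusted p under 0.05): DKK1, LGR5, a receptor for R-spondins, and CCND1, which encodes cyclin D1. LGR5 held 384, 393, 409.8 and 632 in control and 921, 943, 924 and 948 in BPS2 (2.10-fold, log2 fold change 1.07 ± 0.15, adjusted p = 0.00662), with control replicate 4 high among the controls. CCND1 held 6245, 7746, 8174 and 9366 in control and 10913, 12078, 12435 and 11516 in BPS2 (log2 fold change 0.59 ± 0.11, adjusted p = 0.0269). In the Notch list 1 of 17 tested members rose and 0 fell (5 higher and 1 lower at an unadjusted p under 0.05): HES1, a Notch target that represses neuronal genes, at 26.5, 24.8, 38.9 and 22.2 in control and 60.9, 58.2, 89.6 and 66.9 in BPS2 (2.42-fold, log2 fold change 1.28 ± 0.21, adjusted p = 0.0176). Rises and falls without control replicate 1 were 5 and 0 in the Wnt list and 2 and 0 in the Notch list. The medians of the lists were 0.05 (−0.03 without control replicate 1) and 0.17. A single omission ended the call of CCND1 (without control replicates 2 or 3 or BPS2 replicates 1, 2, 3 or 4, 0.0511 to 0.103), and HES1 (without control replicate 2 or BPS2 replicates 3 or 4, 0.0631 to 0.0645).

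**Figure D4:**
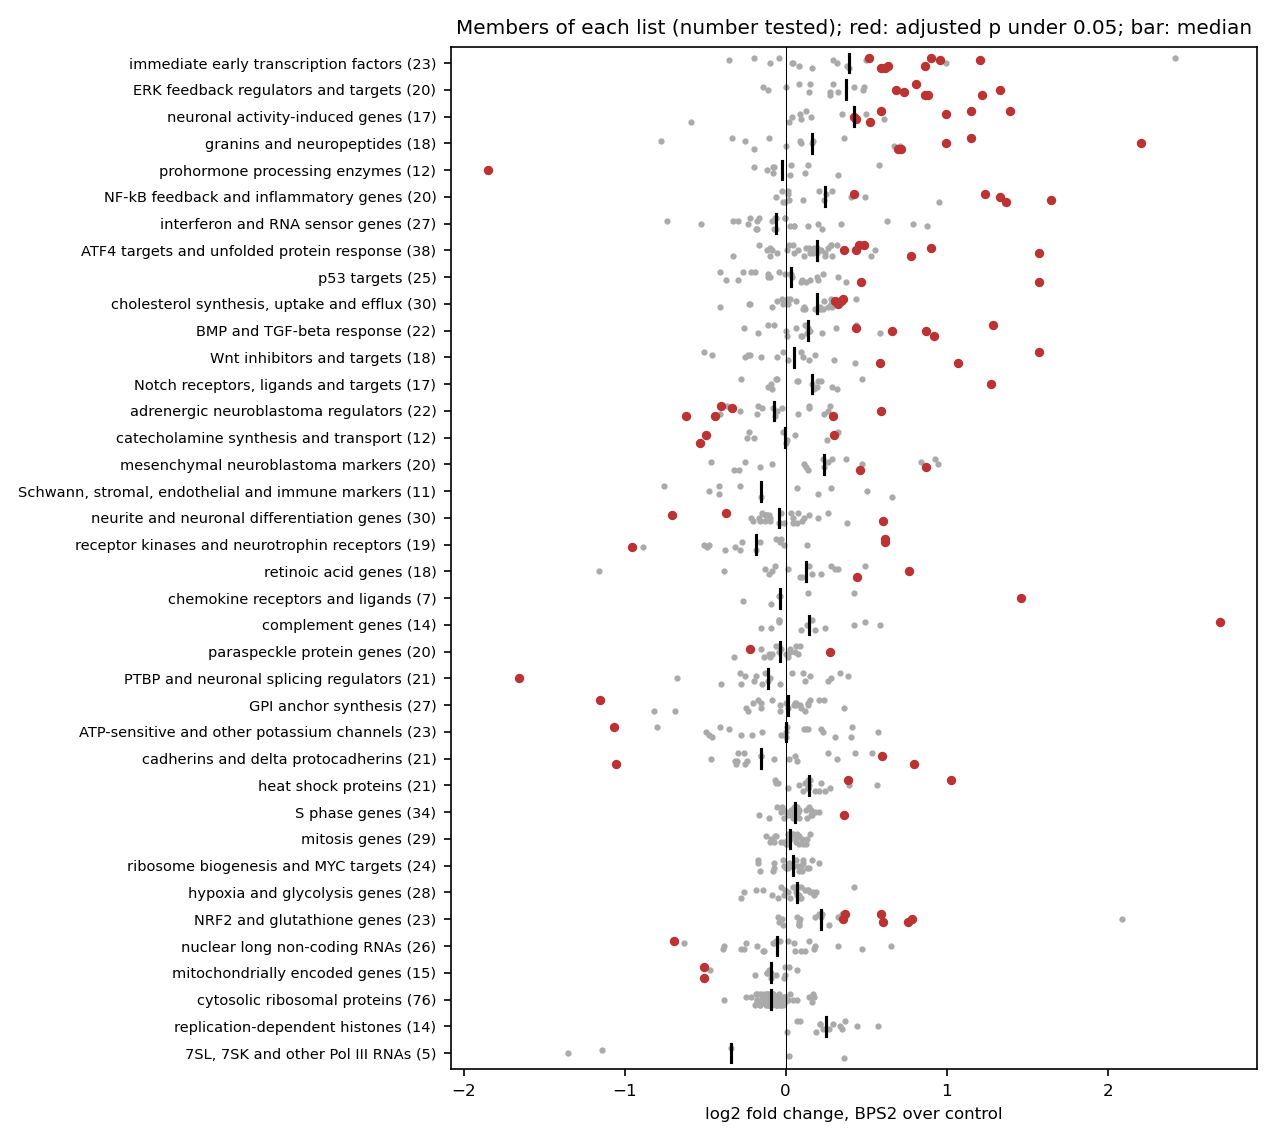
Log2 fold change of BPS2 over control (horizontal) for every tested member of each gene list (vertical, number tested in brackets), 1 point per gene, red where the adjusted p was under 0.05, with the median as a bar. Immediate early, ERK feedback and activity-induced genes have the medians farthest to the right (0.39, 0.38 and 0.42), and ribosomal protein and mitosis genes lie close to 0 (−0.09 and 0.03).

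Regulators of the adrenergic neuroblastoma state changed in both directions. Adrenergic cells run on a core circuit of neural crest factors such as HAND2, ISL1 and GATA3: 2 of 22 tested members rose and 4 fell (5 higher and 9 lower at an unadjusted p under 0.05), with a median of −0.07. TFAP2B, a sympathoadrenal differentiation factor, held 7531, 7794, 8107 and 8524 in control and 6272, 5972, 5952 and 5968 in BPS2 (log2 fold change −0.40 ± 0.05, adjusted p = 0.00662). ISL1 held 4401, 4107, 4158 and 3883 in control and 3317, 3472, 3142 and 3194 in BPS2 (log2 fold change −0.33 ± 0.06, adjusted p = 0.0256). On the log2 scale EYA1, a transcriptional cofactor of developing placodes and ganglia, fell by 0.62 and INSM2, a neuroendocrine zinc finger factor, by 0.44. Against these, TBX2, a T-box factor, held 6077, 5498, 5389 and 6011 in control and 7938, 8638, 9684 and 8362 in BPS2 (log2 fold change 0.59 ± 0.07, adjusted p = 0.00374) and GATA2, a zinc finger factor, rose by 0.29 on the log2 scale. HAND2, a factor of that circuit, was lower in every BPS2 library than in any control and did not pass (log2 fold change −0.18 ± 0.05, adjusted p = 0.159). It passed after correction for the GC trend (adjusted p = 0.0337), in which 1.95% of genes were called (1.26% higher, 0.694% lower). The summed values of the 22 adrenergic regulators were 191026 to 207422 in control and 190622 to 200005 in BPS2, and those of the 25 mesenchymal markers 18396 to 20394 and 19968 to 21776. MYCN, a member with many copies in this line, alone held 81151 to 92957 in control and 82104 to 87722 in BPS2. A large part of each adrenergic sum is thus MYCN, and the rest comes from the other regulators. The sums were not used to check the labelled cell type. Without control replicate 1, 4 rose and 5 fell. Leaving out 1 library ended the call of GATA2 (without control replicates 2 or 3 or BPS2 replicates 2, 3 or 4, 0.0593 to 0.0752), and ISL1 (without control replicates 2 or 3 or BPS2 replicates 1, 2, 3 or 4, 0.0571 to 0.106).

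Of genes that make, store or clear catecholamines, 1 of 12 tested members rose and 2 fell (2 higher and 3 lower at an unadjusted p under 0.05). DDC, the decarboxylase that forms dopamine, held 12314, 10549.8, 9873 and 9049 in control and 7107, 7769, 7029.5 and 7549 in BPS2 (log2 fold change −0.50 ± 0.09, adjusted p = 0.0231). MAOA, which breaks amines down, held 8556, 10373, 9264 and 9146 in control and 6434, 6747, 6447 and 6158 in BPS2 (log2 fold change −0.53 ± 0.07, adjusted p = 0.00374). CYB561, which supplies electrons to dopamine beta-hydroxylase, rose by 0.30 on the log2 scale, while DBH, that enzyme, had all BPS2 libraries below all controls and did not pass (log2 fold change −0.20 ± 0.05, adjusted p = 0.131). DBH passed after correction for the GC trend (adjusted p = 0.0249). After an omission the threshold was missed for CYB561 (without control replicate 3 or BPS2 replicates 2, 3 or 4, 0.0513 to 0.0602), and DDC (without control replicates 2 or 3 or BPS2 replicates 1, 2, 3 or 4, 0.0605 to 0.0930).

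Mesenchymal markers, which define the other cell state of neuroblastoma, showed 2 calls: 2 of 20 tested members rose and 0 fell (7 higher and 2 lower at an unadjusted p under 0.05), with a median of 0.24. YAP1, a co-activator of the Hippo pathway, held 45.8, 68.9, 66.4 and 75.1 in control and 128, 113, 125 and 100.2 in BPS2 (log2 fold change 0.87 ± 0.17, adjusted p = 0.0358), and COL1A1, a chain of type I collagen, rose by 0.46 on the log2 scale. Of markers of Schwann, stromal, endothelial and immune cells, 0 of 11 tested members rose and 0 fell (1 higher and 0 lower at an unadjusted p under 0.05) in limma, and 8 of the 19 were below the filter. Their summed values ran from 559 to 675 in control and from 528 to 753 in BPS2, with SOX10 listed at 0 in all 4 controls and KDR in all 4 BPS2 libraries. Mesenchymal markers had 4 and 0 calls, higher and lower, without control replicate 1. Omissions also ended the call of COL1A1 (without BPS2 replicate 3, 0.0530), and YAP1 (without control replicates 2 or 3 or BPS2 replicates 1, 2, 3 or 4, 0.0730 to 0.127).

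Neuronal differentiation genes gave calls in both directions. Here 1 of 30 tested members rose and 2 fell (4 higher and 5 lower at an unadjusted p under 0.05), with a median of −0.04. STMN2, a microtubule regulator of growing neurites, held 11604, 10871, 10375 and 10584 in control and 6914, 6556, 6315 and 6819 in BPS2, a fall of 1.63-fold with tight groups (log2 fold change −0.71 ± 0.06, adjusted p = 3.35e-04). STMN4, of the same family, held 531, 469, 389 and 382 in control and 583, 683, 736 and 675 in BPS2 (log2 fold change 0.60 ± 0.12, adjusted p = 0.0408), the opposite direction. CNTN1, an axonal adhesion protein, fell by 0.37 on the log2 scale. Among receptor kinases and neurotrophin receptors 2 of 19 tested members rose and 1 fell (3 higher and 4 lower at an unadjusted p under 0.05): RET, the receptor of GDNF family ligands, held 7106, 7524, 7897 and 8384 in control and 11117, 12003, 13000.3 and 11346 in BPS2 (log2 fold change 0.62 ± 0.07, adjusted p = 0.00222), NGFR, the low affinity neurotrophin receptor, rose by 0.62 on the log2 scale, and NTRK2, the receptor of BDNF, fell from 43.9 ± 6.97 to 22.0 ± 1.67 (SD, n = 4, log2 fold change −0.96). Of retinoic acid genes 2 of 18 tested members rose and 0 fell (5 higher and 2 lower at an unadjusted p under 0.05): CRABP2, which carries retinoic acid to the nucleus, held 346, 311, 262 and 345 in control and 488, 508, 552 and 600.4 in BPS2 (log2 fold change 0.77 ± 0.11, adjusted p = 0.00923), and STRA6, the retinol uptake receptor, rose by 0.44 on the log2 scale. Rises and falls without control replicate 1 were 2 and 2 for the differentiation genes, 2 and 2 for the receptors and 3 and 0 for the retinoic acid genes. With fewer libraries the call was lost for CNTN1 and NGFR (without any library other than control replicate 1, 0.0716 to 0.132), and NTRK2 (without control replicates 2 or 3 or BPS2 replicates 1, 2, 3 or 4, 0.0542 to 0.0964). Single omissions took away the call of STMN4 (without control replicates 2, 3 or 4 or BPS2 replicates 2, 3 or 4, 0.0939 to 0.142).

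Besides the short NEAT1 rows, the largest falls were of genes of varied function. IQSEC3, an exchange factor for ARF GTPases at synapses, held 414, 421, 330.0 and 421 in control and 94.3, 135, 85.5 and 93.3 in BPS2 (3.90-fold lower, log2 fold change −1.96 ± 0.15, adjusted p = 3.35e-04), and its identifier has no position in release 29. PCSK5, a proprotein convertase that cuts precursors in the secretory pathway, held 1356, 728, 882 and 581 in control and 319.7, 261, 143 and 248 in BPS2 (3.61-fold lower, log2 fold change −1.85 ± 0.28, adjusted p = 0.0116). PTBP3, a pyrimidine tract-binding splicing regulator (ENSG00000119314, chromosome 9, 112217716 to 112333667, minus strand), held 683, 947, 1427 and 1068 in control and 314, 277, 243 and 468 in BPS2 (3.15-fold lower, log2 fold change −1.66 ± 0.24, adjusted p = 0.00883). Controls of PCSK5 and PTBP3 were widely spread, yet all lay above the highest BPS2 library. PIGA, on the X chromosome, makes the first sugar transfer of GPI anchors and held 1208, 1578, 1665 and 1219.6 in control and 592, 618, 652 and 659 in BPS2 (2.23-fold lower, log2 fold change −1.15 ± 0.11, adjusted p = 0.00129). In the GPI anchor list 0 of 27 tested members rose and 1 fell (3 higher and 5 lower at an unadjusted p under 0.05), and among PTBP and neuronal splicing regulators 0 of 21 tested members rose and 1 fell (3 higher and 5 lower at an unadjusted p under 0.05), PIGA and PTBP3 being these falls. With control replicate 1 left out, 0 rose and 2 fell in the GPI anchor list and 0 rose and 4 fell in the splicing list.

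PCDH19, a delta protocadherin, held 1408, 2520.1, 2575 and 1959 in control and 975, 940.0, 933 and 1130.0 in BPS2 (log2 fold change −1.05 ± 0.17, adjusted p = 0.0166), while its relative PCDH9 (log2 fold change 0.80 ± 0.11) and the classical cadherin CDH11 (0.60 ± 0.12) rose, and in the list 2 of 21 tested members rose and 1 fell (2 higher and 4 lower at an unadjusted p under 0.05). ABCC8, the sulfonylurea receptor of ATP-sensitive potassium channels, held 149, 205, 310.3 and 163 in control and 92.9, 83.3, 115 and 87.8 in BPS2 (log2 fold change −1.07 ± 0.22, adjusted p = 0.0418). In its list 0 of 23 tested members rose and 1 fell (1 higher and 4 lower at an unadjusted p under 0.05), and without control replicate 1 the counts were 1 and 3 there and 2 and 2 among the cadherins. On the log2 scale RALB, a Ras-like GTPase, fell by 1.03, GLMN, the gene of glomulin, by 1.00, PTER by 1.11, the T cell adaptor gene LAT by 1.06, PTPRN2, a protein of dense core vesicles, by 1.13 and COL8A1, a short chain collagen, by 1.36. AL050343.1, a non-coding gene, fell by 1.27 and overlaps NRDC on the other strand and OSBPL9 on its own. With 1 library left out, an adjusted p above 0.05 was reached by CDH11 and PTPRN2 (without control replicates 2 or 3 or BPS2 replicates 1, 2, 3 or 4, 0.0686 to 0.151), and ABCC8 (without any library other than control replicate 1, 0.0584 to 0.132). The adjusted p rose above 0.05 for COL8A1 (without control replicates 3 or 4 or BPS2 replicates 1, 2, 3 or 4, 0.0942 to 0.147), and LAT (without control replicates 2 or 3 or BPS2 replicate 2, 0.0544 to 0.0572). A single omission ended the call of PCDH19 (without control replicates 2 or 3 or BPS2 replicates 2 or 3, 0.0531 to 0.0649).

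Cell division and growth genes gave 1 call. Of S phase genes 1 of 34 tested members rose and 0 fell (4 higher and 0 lower at an unadjusted p under 0.05), the call being CDT1, a licensing factor of DNA replication (log2 fold change 0.36), which did not pass after correction for the GC trend (adjusted p = 0.0674). Mitosis genes gave 0 rises and 0 falls of 29 in limma (0 higher and 0 lower at an unadjusted p under 0.05), and ribosome biogenesis genes 0 and 0 of 24 (3 and 2). Hypoxia and glycolysis genes gave 0 and 0 of 28 (3 and 2). Heat shock proteins had 2 rises of 21 and 0 falls (12 and 0). HSPB8, a small chaperone, held 152, 125, 121 and 124 in control and 288, 244, 263 and 269 in BPS2 (2.04-fold, log2 fold change 1.03 ± 0.11, adjusted p = 0.00175), and HSPA1B rose by 0.39 on the log2 scale, though it shares nearly all its sequence with HSPA1A. Leaving out control replicate 1, 8 rose and 0 fell among heat shock proteins and 5 rose and 0 fell among S phase genes, and the counts were 1 and 0 for mitosis, 2 and 0 for ribosome biogenesis and 2 and 1 for hypoxia genes. Leaving out 1 library ended the call of CDT1 (without control replicates 2, 3 or 4 or BPS2 replicates 2, 3 or 4, 0.100 to 0.176).

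Lists that can track RNA quality gave the following values, and their part in the results above was not tested. Mitochondrially encoded genes had 0 rises and 2 falls of 15: MT-ND5 (log2 fold change −0.51 ± 0.08, adjusted p = 0.0105) and the large ribosomal RNA MT-RNR2 (log2 fold change −0.51 ± 0.06, adjusted p = 0.00222), with 0 and 3 without control replicate 1. Mitochondrial genes took up 8.67% ± 0.448 of a library's total in control and 8.11% ± 0.125 in BPS2 (SD, n = 4, exact permutation p = 0.0571), and control replicate 1 was highest at 9.23%. Of 76 ribosomal protein genes 0 rose and 0 fell in limma (0 and 3 at an unadjusted p under 0.05), with a median of −0.09 that became 0.02, with 0 and 1 calls, without control replicate 1. Of 14 replication-dependent histones 0 rose and 0 fell (3 and 0), with all 14 above 0. NEAT1 was the single call of 26 nuclear long non-coding RNAs, whose median was −0.05, and without control replicate 1 there were 2 rises and 3 falls among them. Among 7SL, 7SK and other RNAs of RNA polymerase III 0 rose and 0 fell of 5 (0 and 2), and 0 and 1 without control replicate 1.

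The effect of BPS2 differed from that of BPS1 for part of these genes. The groups share their controls, so the test is the direct contrast of BPS2 and BPS1 in a fit of all 12 libraries, in which 791 of 19626 genes passed (4.03%: 472 higher with BPS2, 2.40%, and 319 lower, 1.63%). BPS1 replicate 4 stood apart, with an SD over genes of its deviation from the group mean of 0.471 against 0.293 to 0.308 in the other BPS1 libraries. Its deviation from the median of the 8 control and BPS2 libraries had a rho with GC content of 0.346, against −0.163 to −0.112 in the others. That median holds no BPS1 library, so these rho values can also hold an effect of BPS1. Without BPS1 replicate 4, 1768 genes passed (9.01%: 1145 higher, 5.83%, and 623 lower, 3.17%), and without any other single library of these groups 469 to 560. Of the 232 genes that rose against control, 46 passed this test too, 32 of them above BPS1 and 14 below, and of the 108 that fell, 18 did, 10 above and 8 below. Without BPS1 replicate 4 these counts were 62 and 16 of the risen and 14 and 16 of the fallen genes. Among the lists, the one for cholesterol had the most members that differed: 14 of 30 were higher with BPS2 than with BPS1 and 0 lower (19 and 0 without BPS1 replicate 4). HMGCS1 held 6746, 7169, 7153 and 5852 in BPS1, below every control, and BPS2 lay 0.99 ± 0.08 above it on the log2 scale (95% interval 0.83 to 1.16, adjusted p = 1.49e-05). The difference was 0.85 ± 0.07 for MSMO1 (adjusted p = 2.22e-05), 0.53 ± 0.06 for CYP51A1 (3.14e-04) and 0.36 ± 0.06 for INSIG1 (0.00302). The median log2 fold change of the list against control was 0.20 in BPS2 and −0.25 in BPS1.

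Antioxidant and inflammatory genes also separated the oligonucleotides. In the NRF2 list 5 of 23 lay above BPS1 and 0 below (8 and 0 without BPS1 replicate 4). NQO1 held 801, 855, 785 and 1138 in BPS1 (BPS2 above by 0.97 ± 0.11 on the log2 scale, adjusted p = 4.23e-04), within the range of the controls or below it, and GPX3 382, 437, 470.3 and 580.3 (1.04 ± 0.12, 3.26e-04). GCLM differed by 0.39 ± 0.08 (0.0210) and SRXN1 by 0.41 ± 0.10 (0.0424). Higher with BPS2 as well, with log2 differences in brackets, were ICAM1 (1.99 ± 0.31, adjusted p = 0.00299), CCL2 (1.43 ± 0.25, 0.00625), ZFP36 (0.80 ± 0.17, 0.0199), CREM (0.44 ± 0.11, 0.0430), DDIT4 (0.77 ± 0.11, 0.00155), CRABP2 (0.92 ± 0.13, 0.00133) and AC009779.3 (1.58 ± 0.25, 0.00321). None of these 11 genes rose with BPS1 against control in the fit of all libraries. ICAM1 was tested only because its BPS2 values were high. The difference from BPS1 was lost for SRXN1 and CREM without any BPS1 or BPS2 library other than BPS1 replicate 4 (0.0562 to 0.133), and GCLM without BPS1 replicates 1 or 2 or BPS2 replicates 1, 3 or 4 (0.0627 to 0.0688). So was that of ZFP36 without BPS1 replicates 1 or 3 or BPS2 replicates 2, 3 or 4 (0.0507 to 0.0698).

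Other genes that BPS2 moved were moved further by BPS1. STMN2 held 4116, 3061, 2942 and 2822 in BPS1, and BPS2 lay 1.06 ± 0.10 above on the log2 scale (adjusted p = 8.63e-05). BAMBI stood −0.72 ± 0.13 from BPS1 (0.00643), SMAD6 −0.58 ± 0.12 (0.0158) and SPRY4 −0.39 ± 0.07 (0.00906), each lower with BPS2. HAND2, which did not pass against control, was 0.39 ± 0.07 above BPS1 (0.00475), and MAOA differed by 0.38 ± 0.09 (0.0305). GLMN, in contrast, was lower with BPS2 than with BPS1 (−0.60 ± 0.11, 0.0101). The difference from BPS1 was lost for MAOA without BPS1 replicates 2 or 3 or BPS2 replicates 1, 2, 3 or 4 (0.0627 to 0.0987), and SMAD6 without BPS2 replicates 1 or 4 (0.0530 to 0.0549).

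For many genes a difference between BPS2 and BPS1 was not shown, and the intervals give what the data allow. On the log2 scale the difference was −0.06 ± 0.21 for EGR1 (95% interval −0.52 to 0.39), 0.22 ± 0.11 for ATF3 (−0.01 to 0.45), 0.20 ± 0.10 for JUN (−0.00 to 0.41) and −0.25 ± 0.18 for VGF (−0.64 to 0.14), with adjusted p from 0.296 to 0.932. It was −0.25 ± 0.12 for DKK1 (−0.50 to 0.00), −0.16 ± 0.16 for ID1 (−0.51 to 0.19) and 0.42 ± 0.23 for C7 (−0.09 to 0.92), with adjusted p from 0.296 to 0.691. CRH, at 29.3, 48.9, 55.5 and 76.5 in BPS1, lay 1.01 ± 0.31 higher on the log2 scale with BPS2 (0.33 to 1.69), which did not pass (adjusted p = 0.101). For PCSK5, PTBP3 and PIGA the differences were 0.57 ± 0.33 (−0.14 to 1.27), −0.59 ± 0.30 (−1.25 to 0.07) and 0.28 ± 0.20 (−0.16 to 0.72), and none passed. Without BPS1 replicate 4 the differences of JUN (0.31, adjusted p = 0.0100), CRH (1.21, 0.0322) and PTBP3 (−0.90, 0.0356) did pass, and those of the other 8 genes just given did not.

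**Figure D5:**
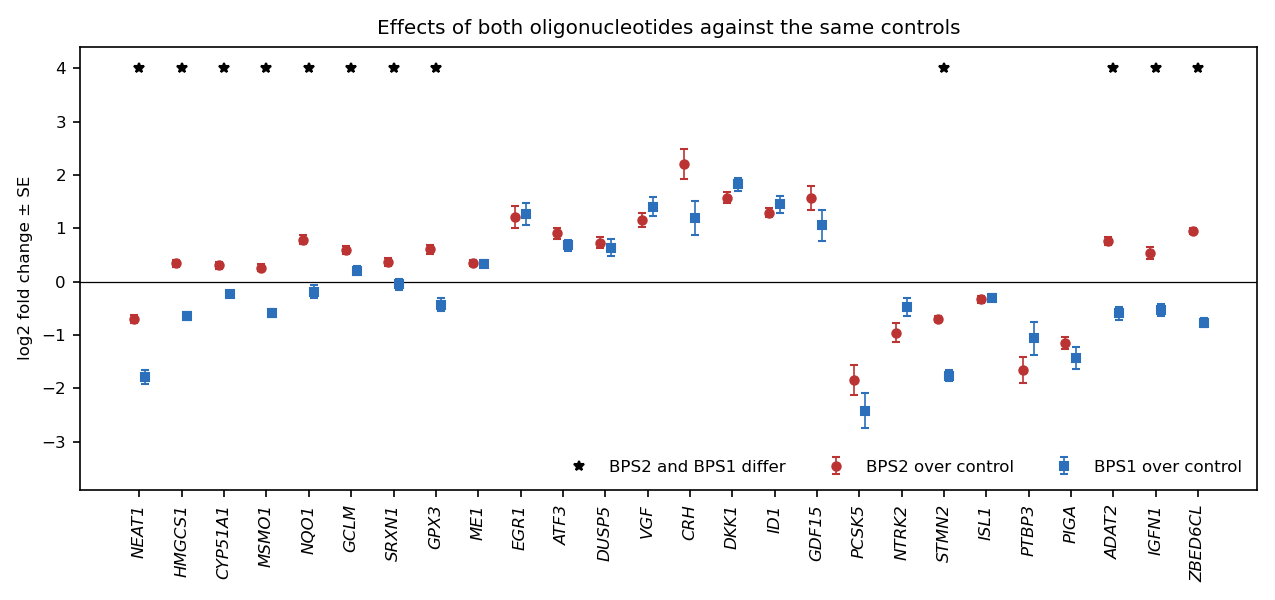
Log2 fold change against the same 4 controls for BPS2 (circles, fit of 8 libraries) and BPS1 (squares, fit of 12), with standard errors (bars), for 26 named genes (horizontal); a star marks genes whose BPS2 and BPS1 levels differed at an adjusted p under 0.05. HMGCS1 is at 0.35 in BPS2 and −0.65 in BPS1, while EGR1 is at 1.21 and 1.27.

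Opposite calls against control were seen for 6 genes that also differed between the oligonucleotides: HMGCS1, CYP51A1 and GPX3, already described, and ZBED6CL, ADAT2 and IGFN1, named after their values were seen. The calls of BPS2 come from the fit of 8 libraries and those of BPS1 from the fit of 12, in which the rise of HMGCS1 with BPS2 was not called (adjusted p = 0.0508). ZBED6CL (ENSG00000188707, chromosome 7, 150329789 to 150332721, plus strand) held 885, 787, 801 and 842 in control and 1571, 1607, 1579 and 1642 in BPS2 and 462, 459, 450.4 and 580.4 in BPS1, so that the groups stood in 3 separate ranges, and LRRC61 overlaps it on the same strand. Its log2 fold change was 0.95 ± 0.06 (adjusted p = 2.56e-04) in BPS2 and −0.77 in BPS1, a difference of 1.72 ± 0.09 (95% interval 1.53 to 1.91, adjusted p = 3.68e-07). ADAT2, a subunit of the enzyme that forms inosine in transfer RNAs (ENSG00000189007, chromosome 6, 143422832 to 143450673, minus strand), held 901, 1123, 1049 and 1072 in control and 1790.2, 1771, 1805 and 1662 in BPS2 and 750.0, 800.0, 700.1 and 519 in BPS1 (difference 1.36 ± 0.12, adjusted p = 4.85e-05). On the log2 scale IGFN1, a gene of skeletal muscle, was at 0.54 in BPS2 and −0.53 in BPS1 (difference 1.07 ± 0.11, 1.77e-04). After an omission the threshold was missed for HMGCS1, CYP51A1 and IGFN1 (without any library other than control replicate 1, 0.0523 to 0.134).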

How the data were processed

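RNA-seq values were analysed for 8 libraries, 4 of BPS2 and 4 of control, with 4 BPS1 libraries for the direct contrast. The authors deposited a normalized signal per gene (gene counts divided by size factors). Per the submitters' processing notes, FastQC 0.11.7, Salmon 0.8.2, DESeq2 (version not given in the sources used here) and GRCh38 were used; the annotation release is not given in the sources used here. For 22.59% of tested genes the values were whole multiples of 1 read in all 8 libraries, 98.37% of genes with 1 transcript and 1.277% of those with 5 or more. The tolerance was 0.001 and grew with the number of reads, so the highest genes match by the tolerance alone. The values therefore come from estimated transcript counts and no count test was run. Kit strandedness is labelled, but whether counting used strand is not stated, so overlapping genes on either strand may share reads. Overlaps are given above for some genes only. LAT, LGR5, HERPUD1 and HNRNPA1 also overlap a tested gene on their own strand. ETV4, JUNB, MAFF and GLMN are among those that overlap one on the other strand.

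Values were taken as log2(value + 1) for 19626 genes at 10 or more in at least 4 of the 8 libraries, and fitted with limma 3.58.1 in R 4.3.3 (eBayes with trend, two-sided, Benjamini-Hochberg adjustment over all genes tested). BPS1 values come from a fit of all 12 libraries. Data were also simulated with independent normal noise at the spread of each gene, with no GC trend and no library that stood apart. In them the fit recovered 33 of 100 changes of 1.5-fold and 66 of 100 changes of 2-fold, with 3 false calls among 102. A gene that was not called may therefore still differ. The false calls do not give the rate in the real libraries, whose noise differs from that setting. Single shares were compared by exact two-sided permutation tests. Positions are from GENCODE release 29 (53405 of 55771 identifiers matched). Replicates of a group differed by more than sampling noise (chi-square per gene 2.93 to 31.3). Genes were named by rule: NEAT1, NONO, SFPQ, PSPC1, MYCN, the 15 largest rises and falls among called genes with a mean of at least 50 and no overlap between groups, list members with priority to those that passed, and some of the genes overlapping these. Members and lists were chosen with earlier results of these data known. Alternatives were other pseudocounts, filters, scalings, weights, library sets, a replicate block, single omissions and, added after seeing the data, a correction of the GC trend per library.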

Additional observations from a re-analysis of the deposited data

Results flagged for a closer look

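In 24 of 238 groups of 4 libraries looked at, 1 library lay far from the other 3 by Dixon's gap ratio at its critical value for 4 samples, and chance alone does so in about 1 group of 20. Values are normalized read counts, given with the range of the other 3 libraries. Control replicate 1 was the one apart for NPY (123, others 101 to 104), HMGCS1 (9282, others 10773 to 11103), HSPB8 (152, others 121 to 125), GCLM (1088, others 918 to 934) and MT-ND5 (112712, others 90471 to 91849.6). Control replicate 2 was for NONO (24209.5, others 22626 to 22878), COL8A1 (40.2, others 91.2 to 99.2), ATF3 (469, others 375 to 384), SPRY4 (897, others 834 to 840.3), ICAM1 (9.72, others 4.94 to 5.32) and CYP51A1 (3876, others 3487 to 3535). In BPS2 replicate 1 the genes were DDIT4 (1250.1, others 1493 to 1530.5), GADD45A (929, others 1009.7 to 1020.3), TFAP2B (6272, others 5952 to 5972), CDT1 (1657, others 2003 to 2046) and CHGA (84556, others 90361 to 90885). The remaining cases were VGF in control replicate 3 (225, others 183 to 189), IQSEC3 in control replicate 3 (330.0, others 414 to 421), PTPRN2 in control replicate 4 (308, others 686 to 693) and IER3 in BPS2 replicate 4 (27.8, others 41.7 to 45.0). To these were added PLK2 in BPS2 replicate 2 (1831, others 1513 to 1521), LGR5 in control replicate 4 (632, others 384 to 409.8), NTRK2 in BPS2 replicate 3 (24.4, others 20.8 to 21.3) and HSPA1B in BPS2 replicate 3 (5306, others 4903 to 4962). In each of these genes that was called, the 4 libraries of 1 group still lay wholly above or below those of the other.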

How the results depend on the processing

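All alternatives kept the direction of every called gene that is named. The 340 genes called became 1225 with library weights, 65 with a replicate block (40 higher, 25 lower) and 180 at a fold of at least 1.5, and ranged from 121 (without BPS2 replicate 4) to 1222 (without control replicate 1) over single omissions. Other counts were 248 (12-library fit), 249 (no filter), 314 (quantile normalization), 371 (GC correction) and 337 to 351 (the rest). The 791 genes that differed between BPS2 and BPS1 became 3676 with library weights, 525 in a fit of those 8 libraries, 434 with a replicate block and 469 (without BPS2 replicate 4) to 1768 (without BPS1 replicate 4) over omissions. The cause of these shifts was not tested. NEAT1 fell under every alternative, with log2 fold changes from −0.7588 to −0.6551. The difference in mitochondrial share ranged from −0.7315 to −0.3722 percentage points over omissions, with an exact permutation p of 0.0286 without control replicate 4. MYCN, not called, was at 0.0973 with quantile normalization and from −0.0529 to 0.0124 (without control replicate 1) over omissions. Of 108 called genes other than NEAT1 that are named, 52 kept the call in all 8 omissions; 24 lost it in the 12-library fit (PSPC1, PTPRN2, JUNB, JUND, CREM, PPP1R15A, PLK2, NPY, CARTPT, NFKB2, DDIT4, GADD45A, HMGCS1, SC5D, ID3, GATA2, TBX2, YAP1, STMN4, CNTN1, HNRNPA1, HSPA1B, CDT1 and SRXN1), 16 with no filter, 10 with quantile normalization, 2 with the GC correction, 1 with a pseudocount of 0.5 and 64 with the block. Among the 64 lost with the block were genes that kept the call in all 8 omissions. These were GDF15, PTER, ZFP36, HSPA5, ID3, TBX2, TFAP2B, INSM2, CRABP2, STRA6, HSPA1B and GPX3. Same-numbered libraries of BPS2 and control did not deviate together (correlations −0.171, 0.009, −0.001 and −0.018). These deviations also hold the GC trend of each library, so they cannot settle whether same-numbered libraries were paired.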

Other observations

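Outside the lists, AHNAK and RTL1, named after their values were seen, kept their calls in all 8 omissions. AHNAK, a very large scaffold protein of the cell cortex (ENSG00000124942, chromosome 11, 62433542 to 62556235, minus strand), held 2134, 1719, 1802 and 2009 in control and 3483, 3660.2, 4552 and 4243 in BPS2, 2.07-fold higher (log2 fold change 1.05 ± 0.10, adjusted p = 0.00117). It held 2309, 2314, 2170.3 and 2833 in BPS1, and BPS2 lay 0.73 ± 0.11 above on the log2 scale (adjusted p = 0.00233). RTL1, an imprinted gene derived from a retrotransposon (ENSG00000254656, chromosome 14, 100879753 to 100903722, minus strand), held 5792, 5927, 6125 and 6075 in control and 4381, 4105, 4057 and 4268 in BPS2 (log2 fold change −0.51 ± 0.05, adjusted p = 0.00148) and 2281, 1845, 1729.7 and 1704 in BPS1, a difference of 1.16 ± 0.08 (adjusted p = 7.79e-06). The BPS2 libraries of RTL1 lay between the other groups without overlap, and MEG8 overlaps the gene on the other strand.

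Replication-dependent histones were above 0 in all 14 tested members, with a median log2 fold change of 0.25 and 0 calls in limma (3 higher at an unadjusted p under 0.05, and 1 called without control replicate 1), beside a median of 0.00 over all genes. RNAs of RNA polymerase III had a median of −0.34 over 5 members, which became −0.12 without control replicate 1. Hypoxia and glycolysis genes, with no call against control, had 4 of 28 members above BPS1, and the list of ATF4 targets and the unfolded protein response had 5 of 38. Without BPS1 replicate 4 these counts were 7 and 13.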
